A study of Mus musculus with 8 samples.

Results

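Ribosome production is among the most costly tasks of a growing cell. In the nucleolus RNA polymerase I transcribes the ribosomal RNA precursor, small nucleolar ribonucleoproteins (snoRNPs) guide its chemical modification, and many assembly factors cut, fold and export the small and large subunits. The transcription factor Myc, which binds DNA as a partner of Max, is known to raise the expression of many of these factors, and in macrophages it is known as a gene induced by growth factors and by alternative activation.

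Myc and 39 ribosome biogenesis factors were read from the deposited expression table by gene symbol. All 40 were found among the 18635 genes of the table, and all 40 were among the 13629 genes tested. The samples were bone marrow-derived macrophages (BMDMs) from young adult mice on a C57BL/6 background, grown with L929-conditioned medium and then kept for 24 h in medium conditioned by AE17, a murine mesothelioma line. Such cells are called tumor-educated macrophages (TEMs). In both genotypes both *Phgdh* alleles were floxed. *Phgdh* encodes the first enzyme of serine synthesis from a glycolytic intermediate. The 4 samples called *Phgdh* fl/fl (control TEMs) carried no Cre, whereas the 4 called *Phgdh* fl/fl *Cx3cr1*-Cre (*Cx3cr1*-Cre TEMs) carried Cre in 1 *Cx3cr1* allele, so that the recombinase depended on a promoter active in monocytes and macrophages. The design text calls the samples of a genotype biological replicates, but the labels do not tie a sample to an animal, so that the p-values describe the spread between these samples. BMDMs without tumor-conditioned medium were not analysed here. The question put to these data was how the machinery of ribosome production differed between the genotypes.

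The value of a gene in a sample is its normalized count, the reads counted on it after division by a per-sample size factor. Between 38219563 and 47027420 reads were counted on genes per sample, from 41998820 upward in control TEMs and up to 44149669 in *Cx3cr1*-Cre TEMs. *Phgdh* itself was at 105 to 129 normalized counts in control TEMs and at 14.2 to 35.3 in *Cx3cr1*-Cre TEMs, a log2 difference of -2.15 (SE 0.21, limma adjusted p = 5.1e-08), as the labels state. All 7 macrophage markers were present, with a summed level of 986516 to 1075524 in control TEMs and 973612 to 1048997 in *Cx3cr1*-Cre TEMs. Of these 7 markers, 3 were lower, namely *Fcgr1* (log2 fold change -0.40, limma adjusted p = 7.4e-12), *Itgam* (-0.19, 7.0e-06) and *Adgre1* (-0.084, 0.00558), and the median of the 7 was -0.040. Of all genes tested 41.0% passed in either direction (20.3% lower and 20.8% higher). The share of the 7 markers that passed was near 41.0%, so that the count is no result about the markers. These 3 markers moved in the same direction as the ribosome biogenesis genes, and their part in the results was not tested. None of the 3 T cell and 3 erythroid markers was listed in the table. Of the 6 neutrophil markers only *S100a8* was listed, at 467 to 575 against 576 to 631, and its part in the results was not tested. The summed markers of B cells, natural killer cells, dendritic cells, fibroblasts and mesothelial cells lay at or below 43.8 in each sample. On the first principal component of all genes tested, replicate 1 of control TEMs (-14.0) lay nearer to the other genotype than the other 3 samples of its group (-21.2 to -20.0). The second component (13.2% of the variance) set replicates 1 and 4 of both genotypes (all positive) apart from replicates 2 and 3 (all negative), a split that no label names. In bulk RNA, fewer cells of a type and less RNA per cell cannot be told apart.

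Most of the 40 genes were lower in *Cx3cr1*-Cre TEMs, and by a modest amount. *Myc* fell by 23.2%, *Nop58* and *Dkc1*, which encode core proteins of the snoRNPs, fell by 30.1% and 28.3%, and the nucleolar protein genes *Ncl* and *Npm1* fell by 13.0% and 7.57%. Of the 40 genes, 33 were lower at a limma adjusted p under 0.05, where 41.0% of all 13629 genes tested passed (20.3% of all genes lower, 20.8% higher). The 33 genes were between 5.38% and 30.1% lower, with a median of 16.4%. None of the 40 was higher, neither by limma at an adjusted or an unadjusted p under 0.05 nor by edgeR or DESeq2 on the recovered reads. The median log2 fold change was -0.23 over the 40 genes and -0.0018 over all genes tested. For 34 of the 40 genes each sample of *Cx3cr1*-Cre TEMs lay below each sample of control TEMs, a separation seen for 18.2% of all genes tested, with 18.4% apart in the other direction.

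These genes are abundant, and abundant genes passed the test more often. Among the 8074 genes whose mean normalized count reached 500, a level chosen after the values were seen, 27.6% were lower and 25.8% were higher, and 38 of the 40 genes reached that level. The median coefficient of variation between samples of the same genotype was 3.29% in control TEMs and 2.75% in *Cx3cr1*-Cre TEMs over 39 of the genes, with *Wdr74* left out for its few reads. The mean log2 deviation of these 39 genes from their own means was 0.110 to 0.135 across control TEMs and -0.128 to -0.114 in *Cx3cr1*-Cre TEMs, so that the 8 samples fell into their genotypes with little spread within each. In replicate 1 of control TEMs, the sample apart on the first principal component, this deviation was 0.118, within the range of its group, and without that sample 32 of the 40 genes were lower. Within replicates 1 and 4 alone the median log2 fold change of the 40 genes was -0.24, against -0.0017 over all genes tested. Within replicates 2 and 3 alone it was -0.24, against -0.00043. These sets were read off the second component of the same 8 samples after seeing the data, and each holds samples of both genotypes. The medians are thus parts of the difference given above and no separate test of it.

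**Figure D1:**
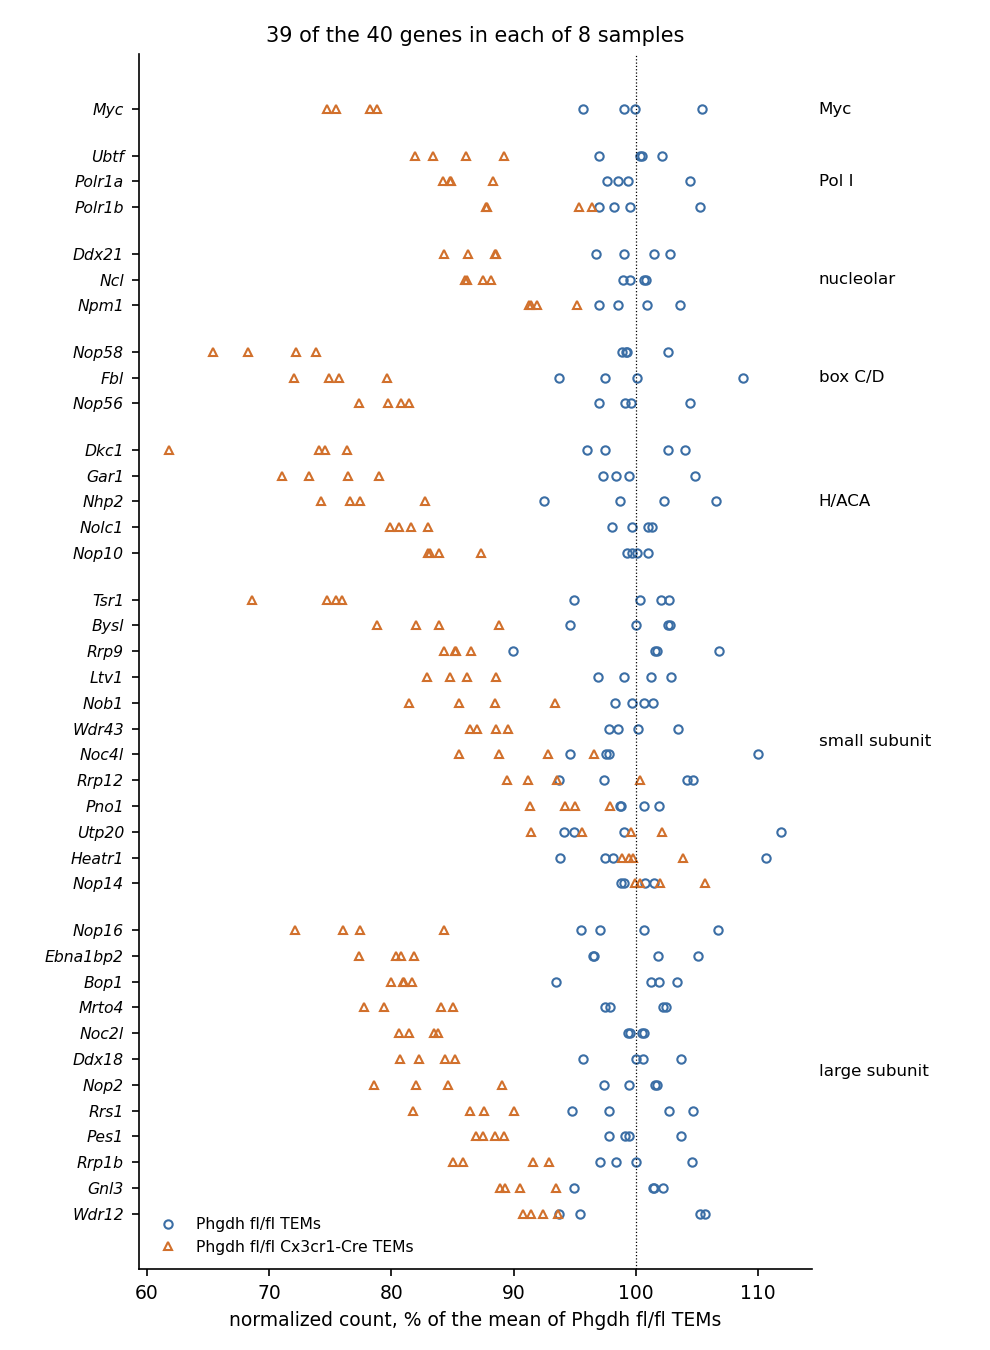
Normalized count of 39 of the 40 genes (all but *Wdr74*) in each sample, as a percentage of the gene's mean in control TEMs, on an axis that does not start at 0. Circles are the 4 samples of control TEMs and triangles the 4 samples of *Cx3cr1*-Cre TEMs, and for 34 genes the triangles all lie left of the circles, while *Nop14*, *Heatr1*, *Utp20*, *Rrp12* and *Noc4l* overlap.

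*Myc* (ENSMUSG00000022346, chromosome 15 from 61985391 to 61990374, plus strand, in mm10 like all positions here) encodes the transcription factor that the other genes are grouped with. Its normalized counts were 1259, 1339, 1216 and 1269.8 in control TEMs and 995, 1002, 959.7 and 950.2 in *Cx3cr1*-Cre TEMs. The lowest sample without Cre was thus above the highest sample with Cre by more than the whole spread of either group. The means were 1271 ± 51.2 against 977 ± 25.5 (SD, n = 4 each), which is -0.38 on the log2 scale (SE 0.04, limma adjusted p = 1.3e-07). The exact two-sided permutation test over the 70 labelings of 4 against 4 samples gave p = 0.029, the smallest p this design allows. Leaving out any 1 sample kept the log2 fold change between -0.40 and -0.35.

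Myc acts within a network of proteins that share its partners and binding sites. Of the 13 genes of the Myc network listed, 10 were tested, 1 was lower and 4 were higher, with a median log2 fold change of 0.042. The share that passed in either direction was near that of all genes tested (41.0%), so that the count is no result about the network. By direction the share lower was under, and the share higher above, those of all genes tested (20.3% and 20.8%). With 10 genes this difference was not tested. *Max*, which encodes the partner that Myc needs to bind DNA, had normalized counts of 2865, 2914, 2859 and 2724 in control TEMs and 2571, 2223, 2358 and 2398 in *Cx3cr1*-Cre TEMs. No sample of *Max* with Cre reached those without, and the gene fell by 15.9% (log2 fold change -0.25, limma adjusted p = 1.1e-05). *Mxd1*, which encodes another partner of Max, had 791, 796, 792 and 787 in control TEMs and 1004, 1039, 988 and 1076 in *Cx3cr1*-Cre TEMs. The 2 groups of *Mxd1* were far apart relative to their spread, and the gene rose by a log2 fold change of 0.37 (limma adjusted p = 2.4e-07). *Mga* rose by 0.28 on the log2 scale (limma adjusted p = 4.5e-05), and by 0.15 with a trend over exon length and GC content taken off. Replicate 1 of control TEMs had 4631 normalized counts of *Mga*, against 3729 to 4067 in the others of its group. The lowest sample with Cre had 4770. *Mxd4* (0.23) and *Mlxip* (0.20), which encode a further Max partner and a glucose-responsive relative, were the other genes that rose. The 5 genes that did not pass had log2 fold changes of -0.30 for *Mxd3* with few reads, -0.024 for *Mxi1*, -0.0095 for *Zbtb17*, 0.018 for *Mlx* and 0.066 for *Mnt*. These 5 genes share the network with those that rose, so that the network did not rise as a whole.

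**Figure D2:**
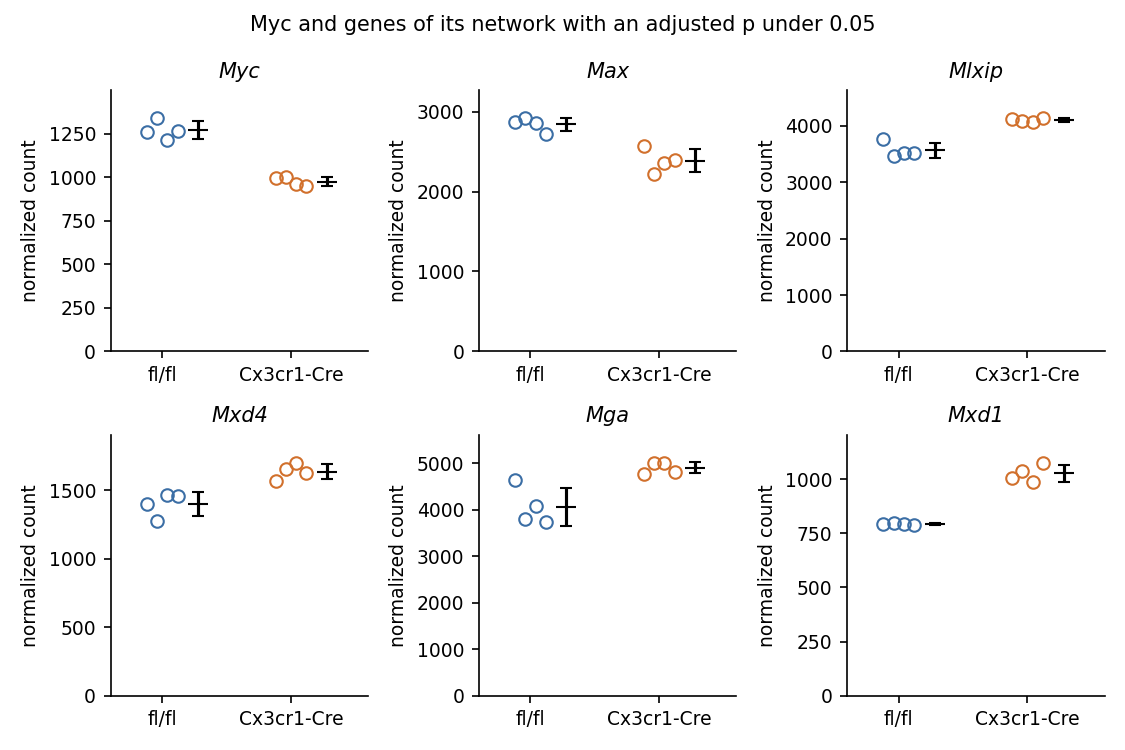
Normalized count of *Myc* and of the 5 genes of its network with an adjusted p under 0.05, on axes that start at 0. Circles are the 4 samples of each genotype and the bars are the mean ± SD, and *Myc* and *Max* are lower whereas *Mlxip*, *Mxd4*, *Mga* and *Mxd1* are higher in *Cx3cr1*-Cre TEMs.

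A list of genes known as Myc targets outside ribosome production was lower as well. This list was chosen with earlier results of these data known, so that it is no independent check. Of its 25 genes, 24 were tested, 21 were lower and none was higher at a limma adjusted p under 0.05, with a median log2 fold change of -0.23 and all 24 values below 0, where 20.3% of all genes tested were lower (27.6% of those with a mean normalized count of 500 or more). At the lower end, *Ccnd1*, which encodes a cyclin of the G1 phase, had a log2 fold change of -0.54 (limma adjusted p = 1.3e-13). *Odc1*, which encodes the rate-limiting enzyme of polyamine synthesis, had -0.50 (limma adjusted p = 1.1e-10). The 3 tested genes that did not pass were *Nme2* (-0.94, limma adjusted p = 0.0515, on 3 to 21 reads per sample and between -1.12 and -0.56 with 1 sample left out), *Cad* (-0.067) and *Eif4e* (-0.038).

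The promoters of the 40 genes were searched for the E-box CACGTG, the sequence that Myc and Max are best known to bind. The reason was that most of these genes moved in the same direction as *Myc*. In the RefSeq promoters of GRCm38.p6, which run from 250 bases before to 50 bases after a start site, 34 of the 40 genes were found with 43 promoters. CACGTG, a palindrome and so the same on both strands, was present in 7 of the 34 genes (20.6%), in 11.8% of the genes tested that have a promoter there, in 24 of 120 other ribosome biogenesis genes and in 8.09% of all genes with a promoter. By promoter it was present in 16.3% of the 43 and in 7.15% of all promoters. The 7 sites, with the motif in capitals and up to 12 bases on either side, lie at chr6:125131811-125131840 (plus strand, *Nop2*), chr10:13193092-13193121 (minus, *Ltv1*), chr10:88826765-88826789 (minus, *Utp20*), chr11:3963965-3963994 (plus, *Pes1*), chr11:17211540-17211564 (minus, *Pno1*), chr11:74898092-74898121 (plus, *Tsr1*) and chr17:71616220-71616249 (plus, *Wdr43*), and read from 5′ to 3′ along the gene:
Nop2: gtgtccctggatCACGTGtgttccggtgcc
Ltv1: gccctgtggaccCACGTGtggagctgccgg
Utp20: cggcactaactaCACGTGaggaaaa
Pes1: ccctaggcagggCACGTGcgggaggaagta
Pno1: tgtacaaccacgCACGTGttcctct
Tsr1: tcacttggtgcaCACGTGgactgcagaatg
Wdr43: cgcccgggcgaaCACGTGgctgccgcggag

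Only the *Nop2* motif lay upstream of the start site, with its first base at -60, and the other 6 began between 3 and 38 bases after it. Of the 7 genes with the motif 6 were lower (median log2 fold change -0.19). Of the 27 genes without it in this window 22 were lower (median -0.23), and of all genes tested 20.3% were. A match is a description of the letters and not of binding. The variant CACGCG, sought on both strands, was present in 26.5% of the 34 genes, in 19.7% of genes tested, in 34.2% of the other ribosome biogenesis genes and in 10.5% of all genes (25.6% of the 43 promoters and 9.27% of all promoters). CCGGAAG, a core letter pattern of ETS family sites sought on both strands, was present in 29.4%, in 20.7% of genes tested, in 45.8% of the other ribosome biogenesis genes and in 9.93% of all genes (25.6% of the 43 promoters and 8.86% of all promoters). The palindromic motif of nuclear respiratory factor was present in 1 of the 34 genes (2.94%), in 2.41% of genes tested, in 1.07% of all genes and in 0.971% of all promoters. None of these letter patterns contains another.

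The first step, transcription of ribosomal RNA by RNA polymerase I, is represented by *Polr1a* and *Polr1b*, the catalytic subunits of the enzyme, and by *Ubtf*, which encodes the factor that binds and opens the ribosomal DNA. All 3 had each sample with Cre below each sample without, a separation seen for 18.2% of all genes tested. Of the 3, 2 passed the test, where 20.3% of all genes tested were lower (27.6% of those with a mean normalized count of 500 or more). In functional groups of so few genes these counts were not tested against those shares. In control TEMs *Ubtf* (ENSMUSG00000020923, chromosome 11 from 102304560 to 102319742, minus strand) was measured at 2916, 3018, 3072 and 3022 normalized counts, and in *Cx3cr1*-Cre TEMs at 2682, 2589.8, 2508 and 2464. The samples of *Ubtf* did not overlap between genotypes. Its means were 3007 ± 65.3 against 2561 ± 96.4 (SD, n = 4 each), which is -0.23 on the log2 scale (SE 0.03, limma adjusted p = 3.4e-06). Samples of control TEMs gave 2428, 2310.2, 2271 and 2291 normalized counts for *Polr1a* (ENSMUSG00000049553, chromosome 6 from 71909053 to 71984935, plus strand), and those of *Cx3cr1*-Cre TEMs gave 1959, 2052, 1974 and 1972. No sample of *Polr1a* overlapped with the other genotype. Its means were 2325 ± 70.7 against 1989.5 ± 42.6 (SD, n = 4 each), which is -0.22 on the log2 scale (SE 0.03, limma adjusted p = 6.0e-06). *Polr1b* did not pass, with a log2 fold change of -0.12 and a limma adjusted p of 0.0537, although its highest sample with Cre (649.7) lay just under its lowest sample without (654). It passed by limma without replicate 3 (0.0488) or 4 (0.0403) of *Cx3cr1*-Cre TEMs.

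A further group encodes the most abundant proteins of the nucleolus and a nucleolar RNA helicase. All 3 of these genes were lower, against 20.3% of all genes tested. For *Ncl* (ENSMUSG00000026234, chromosome 1 from 86344719 to 86359400, minus strand), normalized counts were 20361, 20742, 20710.2 and 20473 in control TEMs and 18134, 17724, 17701 and 17999.9 in *Cx3cr1*-Cre TEMs. Nucleolin, the product of *Ncl*, binds pre-ribosomal RNA, and the 8 samples separated by genotype. The means were 20571 ± 185 against 17889.6 ± 212 (SD, n = 4 each), which is -0.20 on the log2 scale (SE 0.02, limma adjusted p = 8.6e-08). *Ddx21* (ENSMUSG00000020075, chromosome 10 from 62580251 to 62602281, minus strand) had normalized counts of 6624, 6541, 6237 and 6382 in control TEMs and of 5563, 5701, 5707 and 5434 in *Cx3cr1*-Cre TEMs. *Ddx21*, which encodes a helicase that couples polymerase I transcription to processing, also showed no overlap. The means were 6446 ± 172 against 5601 ± 130.2 (SD, n = 4 each), which is -0.20 on the log2 scale (SE 0.03, limma adjusted p = 2.0e-06). *Npm1*, which encodes the ribosomal chaperone nucleophosmin, fell by 7.57% (log2 fold change -0.11, limma adjusted p = 6.6e-04). *Npm1* has 8 annotated pseudogenes with at least 90% identity over at least 200 bases, 6 of them listed in the table with a summed mean normalized count of 130.2, so that a small part of its reads could be split. Such pseudogenes of *Pes1*, *Wdr12* and *Ddx18* were listed with summed means of 10.5, 4.24 and 10.5.

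The box C/D snoRNPs, which methylate ribosomal RNA, showed the lowest median of the 6 functional groups (-0.40). All 3 core genes were lower, against 20.3% of all genes tested. In control TEMs *Nop58* (ENSMUSG00000026020, chromosome 1 from 59684971 to 59719044, plus strand) was measured at 1930.0, 1939, 2004 and 1938 normalized counts, and in *Cx3cr1*-Cre TEMs at 1442, 1409, 1334 and 1277. The highest sample with Cre was well below the lowest sample without. The means of *Nop58*, the scaffold protein of the complex, were 1953 ± 34.6 against 1366 ± 74.6 (SD, n = 4 each), which is -0.52 on the log2 scale (SE 0.04, limma adjusted p = 6.5e-10), the lowest log2 fold change of the 40 genes. Samples of control TEMs gave 1250.4, 1395, 1284 and 1202 normalized counts for *Fbl* (ENSMUSG00000046865, chromosome 7 from 28169710 to 28179269, plus strand), and those of *Cx3cr1*-Cre TEMs gave 1022, 961, 972 and 924. *Fbl*, which encodes the methyltransferase fibrillarin, varied more among the samples without Cre than *Nop58* did, and its groups did not overlap. The means were 1283 ± 82.1 against 969.7 ± 40.3 (SD, n = 4 each), which is -0.40 on the log2 scale (SE 0.05, limma adjusted p = 4.2e-07). *Nop56*, the partner of *Nop58* in the scaffold, fell by 20.2% (log2 fold change -0.32, limma adjusted p = 1.5e-07).

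The H/ACA snoRNPs, which convert uridine to pseudouridine, were lower in all 5 genes (20.3% of all genes tested), with a median of -0.36. For *Dkc1* (ENSMUSG00000031403, chromosome X from 75095854 to 75109777, plus strand), normalized counts were 555, 584, 592 and 547 in control TEMs and 352, 422, 435 and 425 in *Cx3cr1*-Cre TEMs. Replicate 1 with Cre was the lowest of the 8 samples, and the other 3 samples with Cre were also below each sample without. The means of *Dkc1*, which encodes the pseudouridine synthase dyskerin, were 569.6 ± 22.2 against 409 ± 38.0 (SD, n = 4 each), which is -0.48 on the log2 scale (SE 0.06, limma adjusted p = 3.6e-06). *Gar1* (ENSMUSG00000028010, chromosome 3 from 129824912 to 129831396, minus strand) had normalized counts of 573, 617, 579 and 585 in control TEMs and of 431, 450.0, 465 and 418 in *Cx3cr1*-Cre TEMs. The groups of *Gar1*, a core protein of the same particle, did not overlap. The means were 588 ± 19.6 against 441 ± 20.5 (SD, n = 4 each), which is -0.42 on the log2 scale (SE 0.05, limma adjusted p = 2.2e-06). *Nhp2* (-0.36) and *Nop10* (-0.25), the other core proteins, and *Nolc1* (-0.30), a chaperone that binds both classes of snoRNP, were lower with limma adjusted p-values of 8.4e-07, 1.5e-05 and 5.5e-08. Genes of the 40 also carry snoRNAs in their introns: 7 of them (*Ncl*, *Nop56*, *Nop58*, *Dkc1*, *Wdr43*, *Tsr1* and *Gnl3*) host 21 annotated snoRNAs, of which 5 were listed in the table and none had enough reads to be tested.

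The small subunit factors were lower in part. Of 12 genes, 7 were lower and 5 did not pass, with a median log2 fold change of -0.16. In control TEMs *Tsr1* (ENSMUSG00000038335, chromosome 11 from 74898071 to 74909342, plus strand) was measured at 1564, 1590.5, 1600.2 and 1479.7 normalized counts, and in *Cx3cr1*-Cre TEMs at 1069, 1184, 1176 and 1165. All samples of *Tsr1*, which encodes a factor of late precursors of the small subunit, were apart by genotype, with replicate 1 lowest among those with Cre. The means were 1558 ± 54.7 against 1148 ± 53.6 (SD, n = 4 each), which is -0.44 on the log2 scale (SE 0.04, limma adjusted p = 1.7e-08). Of the exon bases of *Tsr1*, 32.3% are shared with *Srr* on the opposite strand. Samples of control TEMs gave 1073, 1074, 1045 and 988 normalized counts for *Bysl* (ENSMUSG00000023988, chromosome 17 from 47599331 to 47611492, minus strand), and those of *Cx3cr1*-Cre TEMs gave 876, 824, 928 and 857. *Bysl*, which encodes a factor that remains on the maturing small subunit, had groups that did not overlap. The means were 1045 ± 40.1 against 871 ± 43.6 (SD, n = 4 each), which is -0.26 on the log2 scale (SE 0.04, limma adjusted p = 6.3e-05).

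Among the other small subunit genes, *Ltv1* (-0.22), needed for export of the particle, *Nob1* (-0.20), the endonuclease of the final cut, *Wdr43* (-0.19) and *Rrp9* (-0.23), both parts of the small subunit processome that forms on the nascent precursor, were lower with limma adjusted p-values between 2.3e-05 and 0.00267. *Pno1*, the binding partner of *Nob1*, passed narrowly (-0.080, limma adjusted p = 0.0313). The limma adjusted p of *Pno1* was 0.084 when samples were scaled to their total reads, and the gene also did not pass with DESeq2 (adjusted p = 0.0547), with eBayes without trend (0.0567), or by limma without replicate 2 of control TEMs (0.0846) or without replicate 1 (0.113), 2 (0.0696) or 4 (0.0554) of *Cx3cr1*-Cre TEMs. *Noc4l* did pass without replicate 2 of control TEMs (0.0407) or without replicate 1 of *Cx3cr1*-Cre TEMs (0.0364). The 5 genes that did not pass were *Noc4l* (-0.14, limma adjusted p = 0.059), *Rrp12* (-0.094, 0.128), *Utp20* (-0.039, 0.536), *Heatr1* (0.0097, 0.872) and *Nop14* (0.028, 0.478), 4 of which belong with *Wdr43* and *Rrp9* to the processome (*Rrp12* acts later). For *Utp20* and *Heatr1*, replicate 1 of control TEMs was the highest of the 8 samples (2074 and 2885). The 95% intervals of the log2 fold change were -0.072 to 0.091 for *Heatr1* and -0.033 to 0.089 for *Nop14*, so that a fall of the size seen for *Tsr1* lay outside both.

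The large subunit factors were lower in 12 of 13 genes (20.3% of all genes tested), with a median of -0.26. For *Nop16* (ENSMUSG00000025869, chromosome 13 from 54584185 to 54590090, minus strand), normalized counts were 852, 866, 898 and 952 in control TEMs and 691, 643, 752 and 679 in *Cx3cr1*-Cre TEMs. The groups of *Nop16*, a nucleolar factor of the early large subunit, were apart. The means were 892 ± 44.3 against 691 ± 45.4 (SD, n = 4 each), which is -0.37 on the log2 scale (SE 0.05, limma adjusted p = 5.9e-06). *Ebna1bp2* (ENSMUSG00000028729, chromosome 4 from 118620799 to 118627776, plus strand) had normalized counts of 1445, 1523, 1572 and 1444 in control TEMs and of 1224, 1209, 1157 and 1202 in *Cx3cr1*-Cre TEMs. *Ebna1bp2*, which encodes the homolog of a yeast large subunit factor, showed no overlap. The means were 1496 ± 63.1 against 1198 ± 28.9 (SD, n = 4 each), which is -0.32 on the log2 scale (SE 0.04, limma adjusted p = 6.9e-07).

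*Bop1* (-0.30), *Pes1* (-0.18) and *Wdr12* (-0.12), whose products form the PeBoW complex for processing of large subunit RNA, were each lower. *Wdr12* passed narrowly (limma adjusted p = 0.0433) and did not pass with DESeq2 (adjusted p = 0.0708), with quantile normalization (0.0516), without a filter (0.0516), with eBayes without trend (0.0844) or with scaling to total reads (0.079). By limma it also did not pass without replicate 1 (0.114) or 4 (0.15) of control TEMs or without replicate 1 (0.0925), 2 (0.0865), 3 (0.0574) or 4 (0.075) of *Cx3cr1*-Cre TEMs. *Mrto4* (-0.29), which holds the place of the ribosomal stalk, *Noc2l* (-0.28), the helicase gene *Ddx18* (-0.27), *Nop2* (-0.26), which encodes an RNA methyltransferase, and *Rrs1* (-0.21), which helps to bring in the small ribosomal RNA of the large subunit, followed. *Rrp1b* (-0.17) and *Gnl3* (-0.14), which encodes the GTPase nucleostemin, came last, and the limma adjusted p-values of these 7 genes lay between 1.1e-08 and 0.00396. *Noc2l* shares 20.9% of its exon bases with *Samd11* on the opposite strand.

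*Wdr74*, which encodes a regulator of the helicase that releases factors from the large subunit, was the exception in level. Its normalized counts were 24.2, 13.8, 15.5 and 23.9 in control TEMs and 27.0, 22.9, 31.5 and 14.6 in *Cx3cr1*-Cre TEMs. The groups overlapped, with 2 samples with Cre above the highest control sample and 1 control sample below the lowest sample with Cre. The log2 difference was 0.29 (SE 0.28, limma adjusted p = 0.433), with an interval from -0.29 to 0.86 on 15 to 31 reads per sample. That interval was wide enough to hold a fall of -0.23, the median of the 40 genes. A fall of the size seen for *Nop58* (-0.52) lay outside it.

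**Figure D3:**
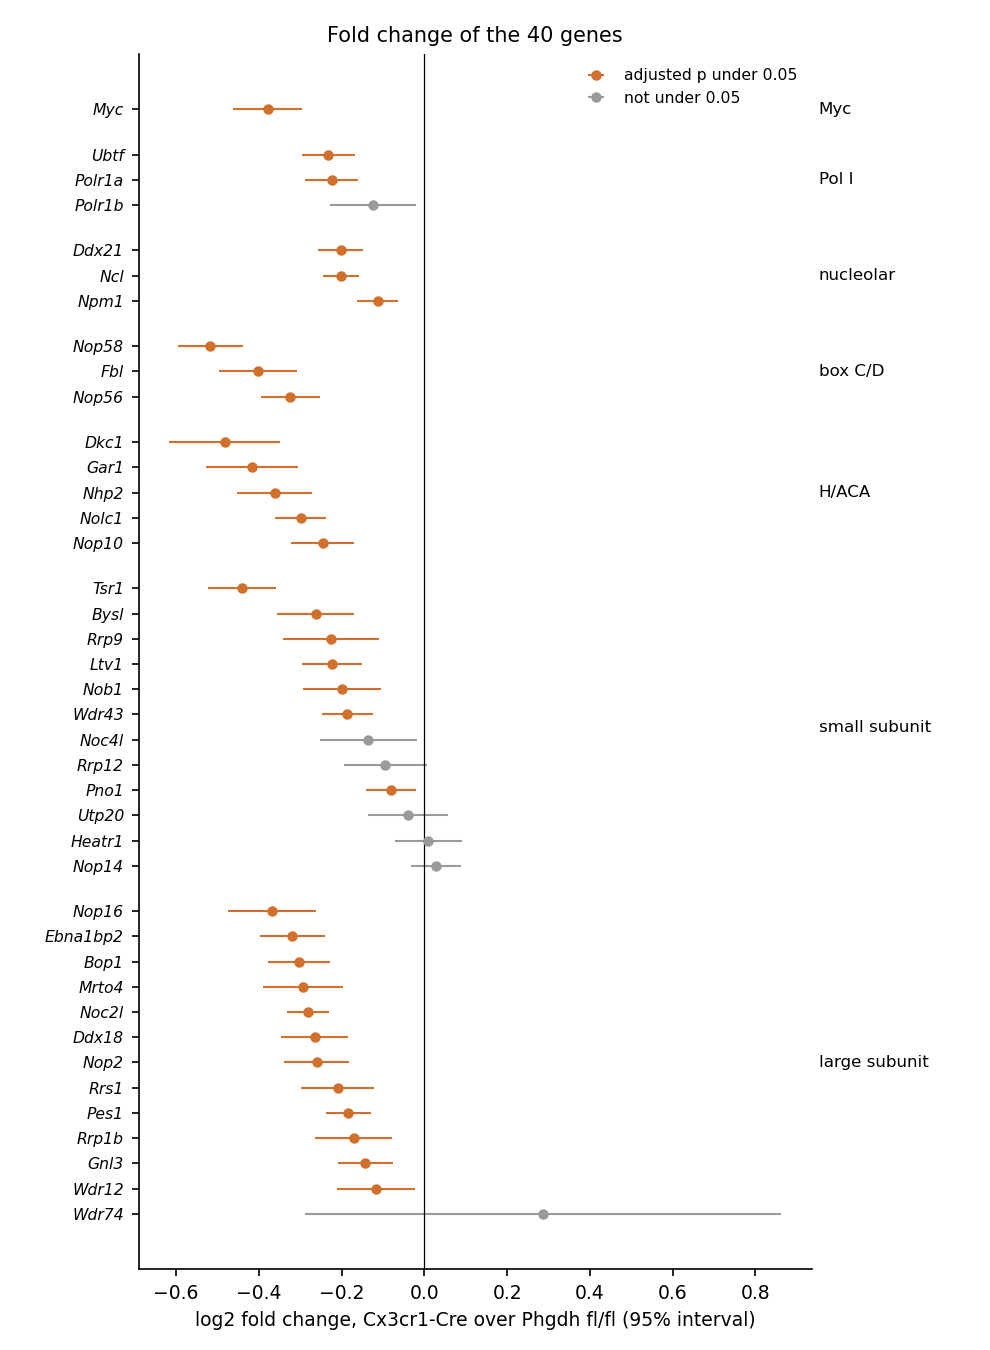
Log2 fold change of the 40 genes in *Cx3cr1*-Cre over control TEMs from limma, with 95% intervals, grouped by function. The 33 genes with an adjusted p under 0.05 all lie below 0, from *Nop58* at -0.52 to *Pno1* at -0.080, and *Wdr74* has the widest interval.

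Per kilobase of exon the levels of the 40 genes spanned a wide range. In control TEMs, FPKM values (reads per kilobase of exon, relative to the sample's total), computed from the recovered reads, were 133 for *Npm1*, 46.6 for *Ncl*, 37.8 for *Noc2l* and 36.9 for *Pno1* at the top. *Myc* was at 10.8, and *Wdr12* (1.84) and *Wdr74* (0.239) were at the bottom. The exon length joins the exons of all annotated transcripts of a gene, which came to 11.96 kb for *Wdr12*. Such a length lowers the level per kilobase, and *Wdr12* was not low in reads. Its mean normalized count in control TEMs was 955, against 570 for *Dkc1*. Across the 39 genes without *Wdr74*, Spearman's rho of the log2 fold change was 0.0445 with this level, 0.225 with exon length and -0.222 with GC content, as a description of genes that share the same 8 libraries. When a trend over exon length and GC content of all genes was taken off, the median of the 40 genes was -0.22 and the 33 genes that had passed were all below 0, but 11 of the 40 values moved by more than the spread between replicates. Of these 11, *Pno1* went from -0.080 to -0.034 and *Wdr12* from -0.12 to -0.21. *Utp20*, which went from -0.039 to -0.12, was not among the 11.

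The rest of the ribosome biogenesis pathway held more lower than higher genes. Of 153 further genes listed by function, 152 were tested, 77 were lower and 5 were higher at a limma adjusted p under 0.05. Among all genes tested 20.3% were lower and 20.8% higher. At a mean normalized count of 500 or more these shares were 27.6% and 25.8%. The median log2 fold change of the 152 genes was -0.10. By function, 29 of 50 large subunit genes, 26 of 49 small subunit genes, 6 of 11 snoRNP assembly genes, 7 of 14 genes of the RNA exosome and ribosomal RNA trimming, 6 of 16 genes of RNA polymerase III and its factors, and 3 of 12 further genes of RNA polymerase I were lower. For the genes of RNA polymerase I the share lower was near that of all genes tested, so that this count is no result about that list. The medians ran from -0.063 for RNA polymerase III to -0.17 for snoRNP assembly. The other genes of RNA polymerase I had a median of -0.069, and *Polr1a* and *Ubtf* were at -0.22 and -0.23.

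At the lower end of the large subunit list were *Nle1* (-0.47) and *Ppan* (-0.42), both assembly factors of the large subunit, and at that of the exosome list *Exosc2* (-0.44), a subunit of the exosome cap, and *Mphosph6* (-0.34), an exosome cofactor. *Tsr2* (-0.29), a chaperone of a ribosomal protein, and *Imp4* (-0.28), a processome protein, led the small subunit list. *Ruvbl1* (-0.29), an ATPase of the snoRNP assembly machine, and *Snu13* (-0.26), the RNA-binding core protein of box C/D particles, led the snoRNP assembly list. *Polr1e* (-0.26) and *Polr1g* (-0.20) led the polymerase I list, and *Polr3k* (-0.19) was among the lower genes of the polymerase III list, all of them polymerase subunits. The 5 genes that rose were *Ttf1* (0.19), the termination factor of RNA polymerase I, *Urb1* (0.24), *Ddx52* (0.087), *Bdp1* (0.28), an initiation factor of RNA polymerase III, and its subunit *Polr3f* (0.12). The limma adjusted p-values of these named genes lay between 3.7e-07 and 0.0313. Scaling to total reads raised the number of higher genes from 5 to 8 and without replicate 1 of control TEMs it was 10, while leaving out replicate 3 of *Cx3cr1*-Cre TEMs lowered it to 3.

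**Figure D4:**
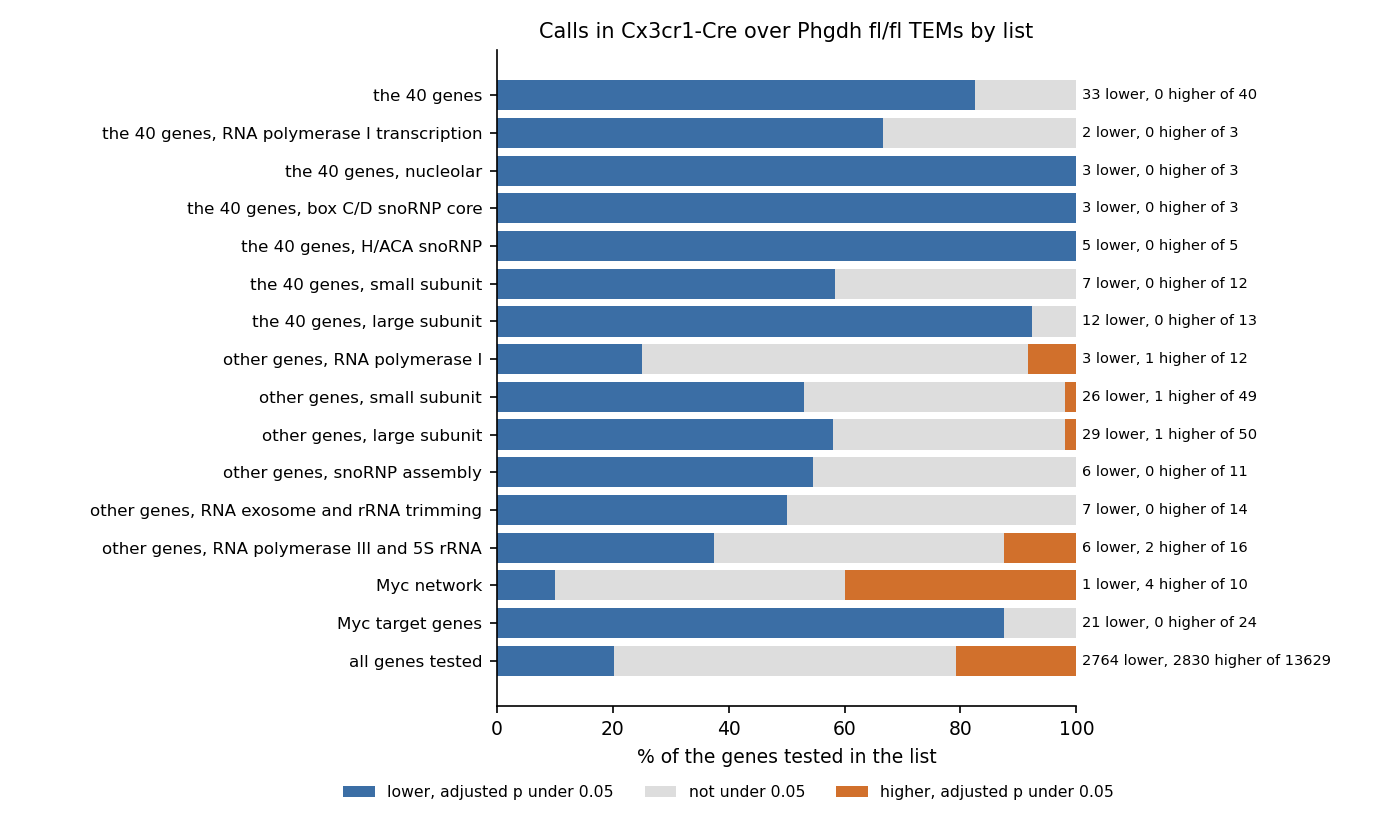
Share of the genes tested in each list that were lower (blue), higher (orange) or not past an adjusted p of 0.05 (grey) in *Cx3cr1*-Cre over control TEMs by limma, on an axis from 0 to 100% with the numbers at the right. The 40 genes are 33 lower and 0 higher, and the Myc network is 1 lower and 4 higher of 10. The share lower in each list of other ribosome biogenesis genes lies between that of the 40 genes and that of all genes tested (20.3%). The other genes of RNA polymerase I, 3 lower of 12, are near the latter, and 27.6% of genes with a mean normalized count of 500 or more were lower.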

How the data were processed

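The 8 libraries, 4 of control (*Phgdh* fl/fl) and 4 of *Cx3cr1*-Cre TEMs, were grouped as the titles state. Libraries were made with a directional kit and read from one end. Per the labels and the study's methods, the authors mapped reads to mm10 with TopHat2, counted them per gene with HTSeq 0.6 and used DESeq2; the annotation and strand setting of the counting are not given in the sources used here. The values the authors deposited are a signal, the read count of a gene over a size factor of the sample, although they are called FPKM. Whole reads were recovered for all 144353 values above 0 (100%, within 0.01 reads), and the count tests on them served as alternatives (edgeR 4.0.16 called 5608 genes, limma 5594). Deposited columns with the authors' mean, log2 fold change, standard error, statistic, p-value and adjusted p-value were not used.

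The test was limma 3.58.1 in R 4.3.3 (eBayes with trend, two-sided, no covariate) on log2(normalized count + 1). It ran over the 13629 genes whose mean normalized count was 10 or more, with Benjamini-Hochberg adjustment over all of them. A fold change on this scale understates that of genes with few reads. Single values were also tested by exact permutation in Python 3.11.15 with scipy 1.17.1. The alternatives tried were no filter or a filter at 100, a pseudocount of 0.1, quantile normalization, scaling to total reads, eBayes without trend, edgeR, DESeq2 1.42.0, blocking on the replicate number, omitting 1 sample at a time and removing a trend over length and GC content. A term for replicates 1 and 4 against 2 and 3 was added after seeing the data. The 40 genes, the gene lists and the level of 500 were chosen with earlier results of these data known.

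Values in every sample are given for *Myc* and for the 2 genes with the largest absolute log2 fold change among those that passed in each functional group. Genes that did not pass are named with their values, and of each other list at most the 2 lowest and 2 highest that passed are named, except 1 gene that is not reported here; *Mxd4*, *Mlxip* and the network and target genes that did not pass were named after their values were seen. Positions, exon lengths and overlaps came from GENCODE M21, which found 18629 of the 18635 genes, and promoters from RefSeq; similar pseudogenes were found with BLAST 2.17.0. On simulated counts over 13599 genes, limma recovered 97 of 100 genes changed by 0.5 and 100 of 100 changed by 1 on the log2 scale. It also called 18 unchanged genes. Only these genes were changed in the simulation, far fewer than the 41.0% of genes called in the data. Smaller changes, such as the median of -0.23 of the 40 genes, were not simulated, so that the recovery does not describe them.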

Additional observations from a re-analysis of the deposited data

Results flagged for a closer look

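Among the 80 groups of 4 samples formed by the 40 genes and 2 genotypes, 5 held 1 sample far from the other 3 (Dixon's test at its 95% critical value), and chance alone gives about 1 in 20. *Dkc1* was at 352.2 normalized counts in replicate 1 of *Cx3cr1*-Cre TEMs, with 421.9 to 435.1 in the other 3. *Tsr1* was at 1069 in the same sample, with 1165 to 1184 in the others. Without that sample the log2 fold changes were -0.41 for *Dkc1* and -0.41 for *Tsr1*, both still past the threshold. *Polr1a* was at 2053 in replicate 2 of *Cx3cr1*-Cre TEMs, with 1959 to 1974 in the others. *Nop58* was at 2004 in replicate 3 of control TEMs, with 1930 to 1939 in the others. *Gnl3* was at 2177 in replicate 1 of control TEMs, with 2327 to 2345 in the others, so that this sample lay nearest to the other genotype for *Gnl3*.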

How the results depend on the processing

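Of the 40 genes, 31 to 35 were lower in each alternative, and *Pno1* and *Wdr12* were the only genes of the 33 to lose their call in any, so that the same 31 genes were lower in each one with a test. *Noc4l* and *Polr1b* passed in some settings, for example at a filter of 100 (limma adjusted p = 0.049 and 0.0443). Leaving out each sample gave 31 to 33 lower genes. No log2 fold change of the 40 genes that passed changed its sign. The median over the 40 genes was -0.21 with scaling to total reads, where the median of all genes was 0.0132 against -0.0018, and -0.24 to -0.22 with each sample left out. The number of other ribosome biogenesis genes that were higher, 5, was 8 with scaling to total reads and 3 to 10 with each sample left out (the cause was not tested), and 66 to 81 of them were lower. All genes called numbered 4930 to 5944 over the alternatives. The log2 fold change of *Myc* stayed between -0.40 and -0.34.

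Same-numbered samples of the genotypes correlated at 0.0628 to 0.126 in their deviations from the group means, and not every sample correlated best with its own number (replicate 1 of control TEMs correlated at 0.134 with replicate 4 of the other genotype), so that they were taken to share only a number. With the replicate block 5597 genes were called, 33 of the 40 genes and 76 of the other ribosome biogenesis genes were lower and 5 higher, and the adjusted p of *Myc* was 2.15e-07. Correlations were 0.0484 to 0.134 within replicates 1 and 4 and within replicates 2 and 3, and negative (-0.124 to -0.0356) across these sets, which no label names. The deviations of a genotype sum to 0, so that positive correlations force negative ones, and the sets were read off the same data. These signs are thus no separate evidence of a split. With a term for the sets, added after seeing the data, 5642 genes were called and the same 33 of the 40 genes were lower. Within replicates 1 and 4 the median of the 40 genes was -0.24 and *Myc* was at -0.38, and within replicates 2 and 3 they were -0.24 and -0.38. Of the 40 genes, reads were few for *Wdr74* alone, whose interval the depth limits.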
